A study of Mus musculus with 32 samples.

Results

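Change with age was described in the diseased kidney of Col4a3 knockout mice by comparing 8 mice of 7 weeks with 8 mice of 4 weeks, across all genes. These 16 mice were chosen by the genotype and age in their labels, out of 32 mice in the study, and no measured value entered the choice. The mice were male, of strain 129, homozygous for the Col4a3 knockout (Col4a3-/-) and without any treatment named in the labels. The remaining 16 mice were male strain 129 littermates with both copies of the gene intact (Col4a3+/+), 8 at 4 weeks and 8 at 7 weeks, and they served here to show how the wild-type kidney changed over the same interval. The labels name no Cre driver and no inducible allele, and the sources used here do not say which exons of the gene are removed. The younger and the older mice were different animals, and nothing in the labels says which mice shared a litter, so p values measure the spread between these mice. Whole kidney was used, 1 array per mouse, and the kidney label was borne out by Umod and Slc34a1, markers of the thick ascending limb and of the proximal tubule, which measured 13.14 (13.02 to 13.28) and 12.84 (12.52 to 13.21) in the younger knockout mice. Such group values are medians on the log2 scale, with the lowest and highest mouse in brackets.

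Col4a3 encodes a chain of type IV collagen that assembles with the chains made from Col4a4 and Col4a5 into the mature network of the glomerular basement membrane. Loss of any of these chains removes that network and causes Alport-type nephropathy, in which the filter leaks protein, tubules are injured, inflammatory cells enter the interstitium and scar tissue replaces nephrons. The kidney of a mouse between weaning and young adulthood is also still growing, so wild-type changes over the same weeks are part of any account of progression.

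Signals were gene-level log2 values for 22180 genes, each represented by 1 array feature. A change is the limma estimate of the log2 difference, 7 weeks minus 4 weeks, ± its standard error, with 8 mice in each group. A gene is called when its p value, adjusted by Benjamini-Hochberg over the 22180 genes, is below 0.05, and "rose" and "fell" are used for called genes. The difference between genotypes is the knockout change minus the wild-type change, tested in the same limma fit. Gene lists and their members were chosen with earlier results of these data known, so complete or nearly complete counts may owe part to that choice. Because RNA came from whole tissue, fewer cells of a type and less RNA per cell cannot be told apart. A technical batch that ran with age cannot be told apart from age, as scan dates were not used here.

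A few arrays stood apart from the rest of their group. Knockout mouse 4 of the 4-week group held 23 of the 46 single values that lay far from the other mice of their group among the genes and lists described here. Single genes were checked for this in the knockout groups only, and list means in all groups. Wild-type mouse 8 of the 4-week group had a mean of 9.996 over 15 antigen presentation genes, against 7.51 to 7.86 in the other 7, and a mean of 7.88 over 22 interferon response genes, against 6.35 to 6.65. Wild-type mouse 5 of the same group had a tubular injury mean of 7.55, against 6.94 to 7.10 in the other 7. Values without 1 of these 3 mice are given beside several of the results below. The array median rose by 0.076 with age in knockout mice and dropped by 0.021 in wild-type mice, and weakly detected genes tended to fall: in the weakest of 4 equal bins of mean level 713 genes fell and 147 rose in knockout mice. The part of these level effects in small changes was not tested. Members of families of near-identical genes, such as Serpina3n, the Gbp, H2, Oasl and Ugt2b genes and the kallikreins, can share probe sequence, and its part in their values was not tested.

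The targeted gene and both of its partner chains fell in knockout kidney between 4 and 7 weeks. Residual Col4a3 signal measured 7.86 (7.60 to 8.42) in the younger and 7.15 (6.97 to 7.87) in the older knockout mice. The groups overlapped, with 6 of 8 older mice below every younger one, and the change was -0.63 ± 0.13 (adjusted p = 1.03e-04, exact two-sided permutation p = 0.00249, adjusted over 6 such tests 0.00747). The wild-type change of Col4a3 was 0.02 (exact permutation p = 0.87), and the genotypes differed by -0.65 (adjusted p = 0.00907). Col4a4 went from 8.03 (7.78 to 8.20) to 7.60 (7.36 to 8.00), a change of -0.31 ± 0.11 (exact permutation p = 0.00855, adjusted 0.0171). Col4a5 went from 6.63 (6.46 to 6.82) to 6.29 (6.12 to 6.50), with 7 of 8 older mice below every younger one, a change of -0.34 ± 0.07 (exact permutation p = 0.000466, adjusted 0.0028). Neither partner chain differed between genotypes past the threshold, with adjusted p values of 0.206 and 0.17, and the wild-type change of Col4a5 was -0.14 (not called by limma, exact permutation p = 0.0263, adjusted 0.0395).

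Much of the transcriptome moved in knockout kidney over these 3 weeks, and the large changes were mostly rises. Limma called 9453 of 22180 genes, 42.6%, of which 4738 (21.4% of all genes) rose and 4715 (21.3%) fell. At 2-fold or more, 630 genes rose and 124 fell, and at 1.5-fold or more 1752 rose and 809 fell. Wild-type kidney changed less over the same weeks: 6553 genes (29.5%) were called, and 106 rose and 50 fell at least 2-fold. The change differed between genotypes for 3779 genes (17.0%), of which 2174 moved upward in knockout relative to wild-type mice. Of the 630 genes that rose at least 2-fold in knockout kidney 538 differed from wild type in that direction and 91 were not called different, and of the 124 that fell 88 differed and 35 were not called. Centring each array on its median left 3906 of 11136 called genes higher in knockout mice, against 4738 of 9453, and 1673 of 5033 higher in the difference, against 2174 of 3779. The split between small rises and small falls therefore depended on the scaling of the arrays.

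Values of the 2 age groups did not overlap at all for 2126 genes (9.59%), 1529 higher and 597 lower at 7 weeks. This split too depended on the scaling of the arrays. After array centring 1162 genes were higher and 1089 lower without overlap, and after quantile normalization 1200 and 960. Leaving out knockout mouse 4 of the 4-week group raised the number of genes without overlap from 2126 to 4170, while leaving out any other knockout mouse gave 2161 to 2543 genes. Changes of the 2 genotypes, which share no mice, correlated across genes with r = 0.459 (Spearman 0.478), a description over genes that are not independent. Among called genes, 4010 moved the same way in both genotypes, 42.4% of the knockout and 61.2% of the wild-type calls, and 3668 of these were not called different.

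**Figure D1:**
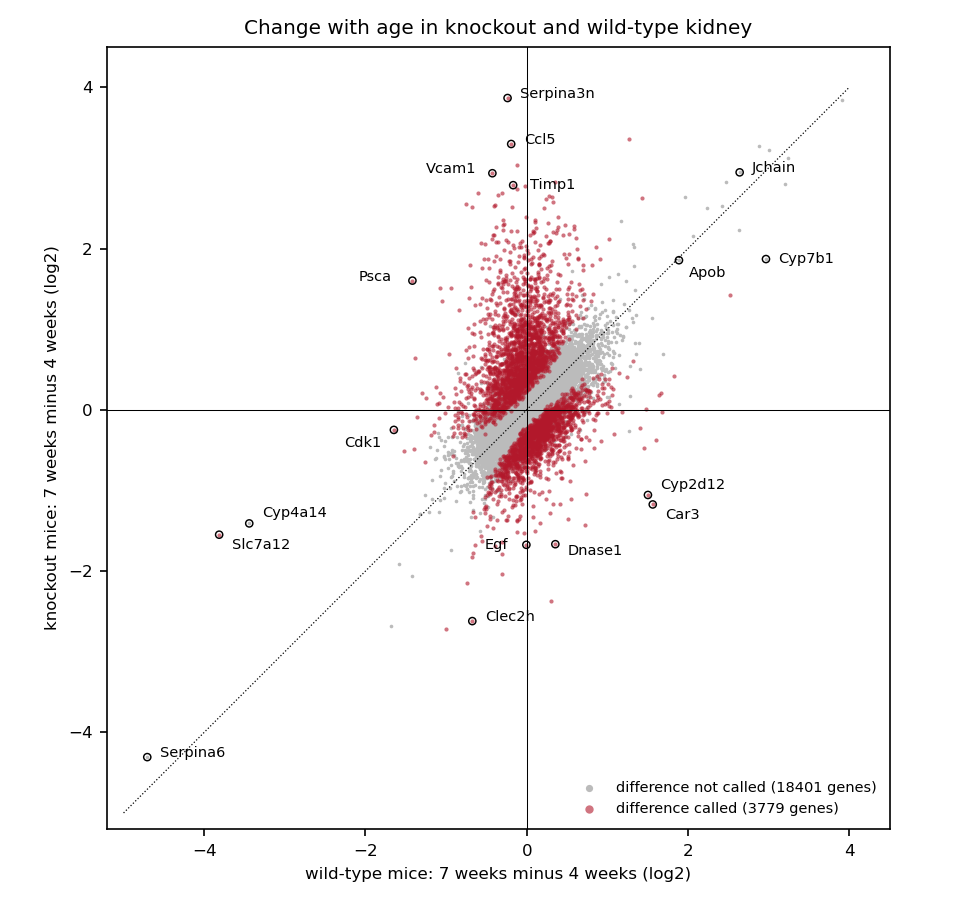
Change with age of each of 22180 genes (points) in wild-type kidney (x axis, log2, 7 weeks minus 4 weeks) and in knockout kidney (y axis, same scale), with the line of equal change dotted and the 3779 genes whose change differed between genotypes in red. Serpina3n, Ccl5, Vcam1 and Timp1 rose in knockout mice with little wild-type change, Serpina6 and Jchain lie near the line of equal change, and Cdk1 fell in wild-type mice with a called difference.

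Serpina3n, a secreted serine protease inhibitor of the acute phase response, had the largest rise of the genes named by the ranking rule and measured 6.59 (6.25 to 8.73) in the younger and 10.95 (9.59 to 12.01) in the older knockout mice. All 8 older mice lay above all 8 younger ones, and the rise was 3.87 ± 0.33 (14.6-fold, adjusted p = 8.55e-11). The wild-type change was -0.24 and was not called, and the genotypes differed by 4.10 (adjusted p = 3.61e-07). Ccl5, a chemokine that draws T cells and monocytes, went from 7.14 (5.73 to 9.24) to 10.70 (10.21 to 11.30). Its groups did not overlap, and it rose by 3.30 ± 0.41 (9.83-fold, adjusted p = 8.35e-08). Retnla, a product of alternatively activated macrophages, measured 3.25 (2.88 to 3.79) at 4 weeks and 6.49 (4.31 to 7.59) at 7 weeks, without overlap, and rose by 3.04 ± 0.29. The spread of Retnla among older mice was wide, more than 3 log2 units from lowest to highest. Vcam1, an adhesion molecule that holds leukocytes and is also made by injured proximal tubule cells, went from 8.05 (7.49 to 9.83) to 11.48 (10.70 to 11.74). Again no older mouse reached down into the younger range, and Vcam1 rose by 2.93 ± 0.28 (7.64-fold, adjusted p = 9.44e-10).

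Further large rises were those of the complement component C4b (2.82 ± 0.33), the metalloproteinase inhibitor Timp1 (2.79 ± 0.25), the lipopolysaccharide co-receptor Cd14 (2.78 ± 0.26) and the matrix glycoprotein Tnc (2.74 ± 0.21). For each of these 4 genes the lowest of the older mice was above the highest of the younger mice. Ccl17, a chemokine for T helper cells, rose by 2.69 ± 0.28, and Ms4a6d, a membrane protein of macrophages, by 2.69 ± 0.35. Sprr1a, an epithelial envelope protein, rose by 2.67 ± 0.38, and H2-DMb2, part of the machinery that loads peptides onto class II molecules, by 2.64 ± 0.33. All of these differed from wild type, by between 2.33 for H2-DMb2 and 3.29 for Ms4a6d. Wild-type mouse 8 of the 4-week group had the highest C4b and H2-DMb2 values of its group, and without it these genes differed by 2.12 and 2.01, both called.

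Slc34a2, a sodium-phosphate cotransporter better known from lung and intestine, rose by 2.65 ± 0.19 (6.28-fold, adjusted p = 5.21e-12). It measured 6.58 (6.04 to 6.98) at 4 weeks and 9.27 (8.05 to 9.995) at 7 weeks, with no overlap. Cpe, an enzyme that trims peptide hormones and neuropeptides, rose by 2.63 ± 0.17 in knockout and by 1.43 (adjusted p = 4.72e-07) in wild-type mice. The knockout rise of Cpe was larger by 1.20 (adjusted p = 7.45e-04).

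**Figure D2:**
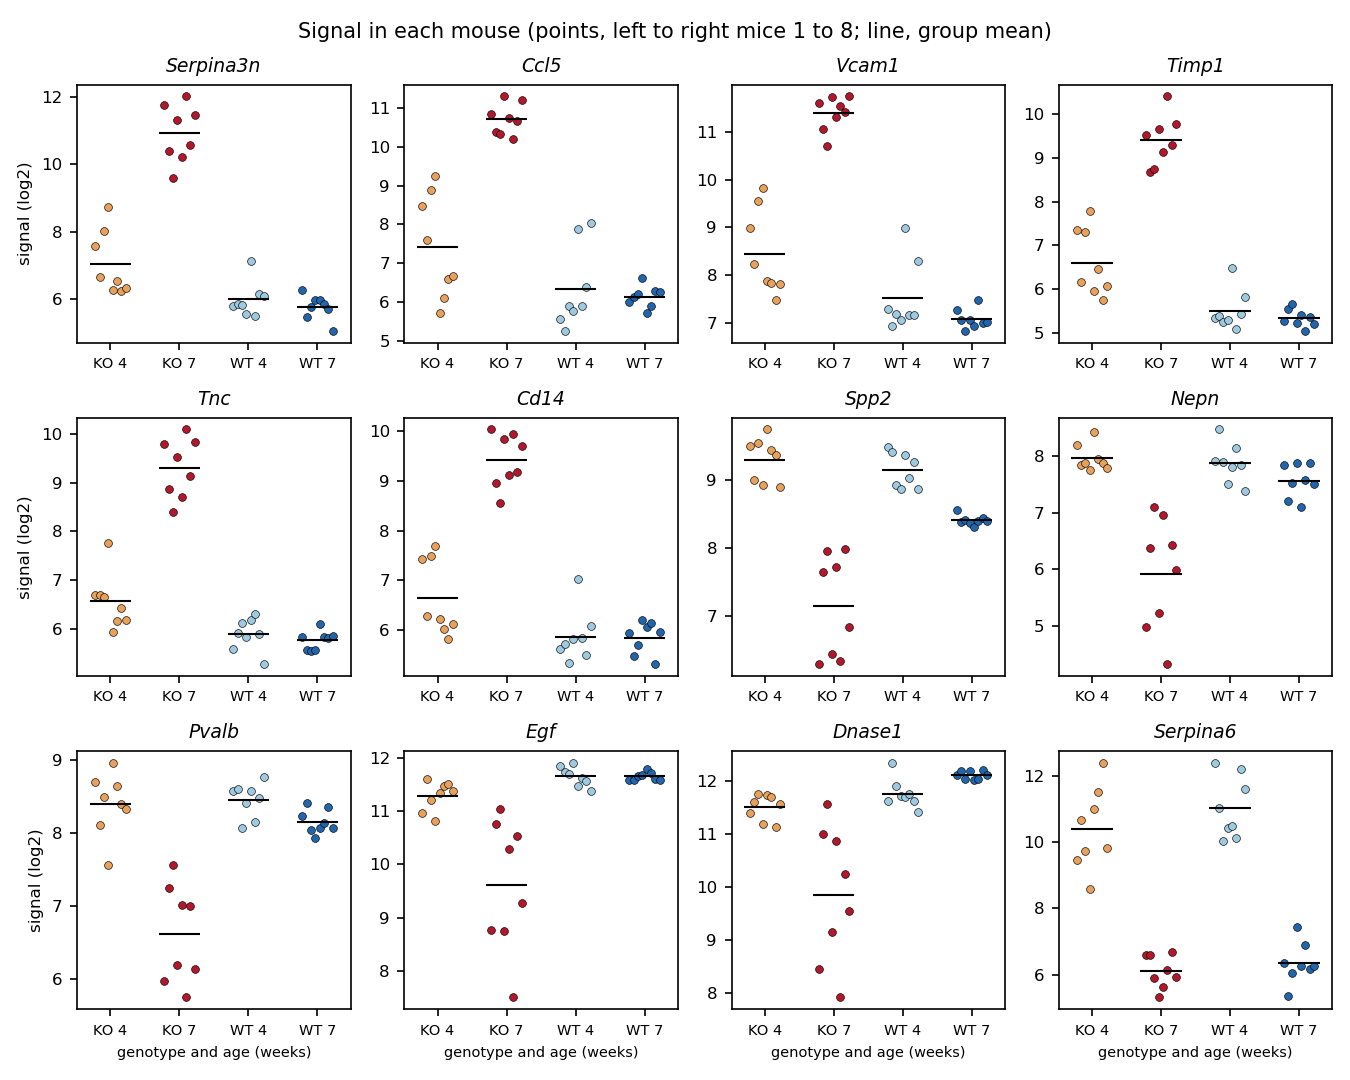
Log2 signal (y axes) of 12 genes in each of the 32 mice (points, left to right mice 1 to 8), by genotype and age in weeks (x axes), with a line at the group mean. Serpina3n, Ccl5, Vcam1, Timp1, Tnc and Cd14 are above all younger knockout mice in every older knockout mouse, Egf and Dnase1 spread widely among the older knockout mice, and Serpina6 falls in both genotypes.

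Genes of macrophages and related myeloid cells rose almost as a body. Of 30 measured markers, 29 rose, with a median change of 1.71 against -0.06 over all genes (-0.07 against -0.01 in wild-type mice), and 29 differed upward from wild type (28 without wild-type mouse 8 of the 4-week group). Lyz2, the lysozyme of myeloid cells, measured 8.19 (7.65 to 9.59) in younger and 11.16 (9.67 to 11.69) in older knockout mice. Those groups did not overlap, and the rise was 2.52 ± 0.30 (adjusted p = 4.43e-08). The lysosomal glycoprotein Cd68 rose by 2.57 ± 0.19, the protease Ctss by 2.54 ± 0.27, the Fc receptor chain Fcer1g by 2.22 ± 0.21 and the membrane protein Ms4a7 by 2.23 ± 0.27. The marker that was not called was the haemoglobin scavenger receptor Cd163, which measured 4.58 (4.36 to 4.91) and 4.44 (4.21 to 4.74), a difference of -0.13 ± 0.09. Cd163 signal was weak, as mean levels in the weakest bin of genes run from 1.47 to 4.86. Among growth factors for these cells, Csf1 rose by 1.74 ± 0.16 and Il34 by 2.11 ± 0.19, and Il34 also rose in wild-type mice, by 1.02, with a difference of 1.09 (adjusted p = 0.0037).

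Chemokines, which recruit leukocytes, rose in 21 of 25 cases, with 1 fall (Cxcl12) and a median of 1.32, and 20 differed upward from wild type, also without that wild-type mouse. Ccl2, the monocyte chemoattractant, went from 7.29 (6.74 to 9.45) to 10.51 (9.95 to 11.02), with no overlap, and rose by 2.55 ± 0.41 (adjusted p = 5.19e-06). Ccl9 rose by 2.51 ± 0.24, Ccl6 by 2.30 ± 0.26 and the interferon-inducible Cxcl10 by 2.16 ± 0.36. Cxcl10 was already high in 1 younger knockout mouse, at 8.86, and it overlapped between ages, with 6 of 8 older mice above all younger ones. Ccl4 (-0.20 ± 0.09), Ccl8 (0.18 ± 0.12) and Ccl28 (0.07 ± 0.38) were not called. Cxcl1, a neutrophil chemoattractant named after its values were seen, measured 5.27 (5.02 to 6.29) at 4 weeks and 7.29 (6.70 to 7.94) at 7 weeks and rose by 1.79 ± 0.21.

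Cytokines and their antagonists rose in 13 of 22 cases, with 1 fall, a median of 0.35 and 11 differences from wild type. The epithelial cytokine Il1f6 rose by 2.08 ± 0.39, the B-cell survival factor Tnfsf13b by 1.42 ± 0.20, Il1b by 1.41 ± 0.19 and its receptor antagonist Il1rn by 1.32 ± 0.14. Il18 (0.19 ± 0.16) and Ifng (0.13 ± 0.11) were not called, and Ifng stayed between 4.90 and 5.72 in all 16 knockout mice.

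Antigen presentation genes rose in all 15 measured cases, with a median of 1.36, and 13 differed upward from wild type. H2-Ab1, a class II chain, went from 9.92 (9.17 to 10.59) to 11.92 (11.44 to 12.42) and rose by 1.99 ± 0.31 (adjusted p = 3.37e-06). H2-Eb1 and H2-Aa, further class II chains, rose by 2.06 ± 0.25 and 1.84 ± 0.26, the class I chain H2-K1 by 1.76 ± 0.22 and the peptide transporter subunit Tap1 by 1.57 ± 0.29, in each case without overlap of ages. In wild-type mice 1 of the 15 was called, and without wild-type mouse 8 of the 4-week group 7 were called, all rises, while 14 then differed between genotypes.

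Interferon response genes counted 13 rises and 2 falls among 22, with a median of 0.75, while in wild-type mice 1 rose and 7 fell, with a median of -0.27. Oasl1 rose by 1.42 ± 0.14, the guanylate-binding protein Gbp5 by 1.31 ± 0.21, Oasl2 by 1.12 ± 0.18 and the transcription factor Stat2 by 1.10 ± 0.15, all without overlap. In total 15 of the 22 differed upward from wild type. Without wild-type mouse 8 of the 4-week group the wild-type median was -0.05, the number that differed was 17 and the number that rose in knockout mice was 16. Ifit1 was not called in knockout mice (0.34 ± 0.21) but differed between genotypes by 1.12 (adjusted p = 0.00687).

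Complement genes counted 13 rises and 2 falls among 17, with a median of 0.89, and 11 differed upward from wild type. Hc, which encodes component C5, went from 5.19 (4.24 to 5.86) to 7.58 (6.34 to 7.96) and rose by 2.26 ± 0.20 (4.78-fold). The anaphylatoxin receptor C3ar1 rose by 2.06 ± 0.18, the inhibitor Serping1 by 1.64 ± 0.15, the regulatory protease Cfi by 1.36 ± 0.14 and the terminal component C7 by 1.13 ± 0.17. Each of these 5 had its older mice wholly above its younger ones, and C3ar1 and C7 fell in wild-type mice, by 0.51 and 0.54. The wild-type fall of C3ar1 was not called without wild-type mouse 8 (adjusted p = 0.0605) or mouse 5 (adjusted p = 0.0771) of the 4-week group. Without mouse 8, 11 complement genes again differed upward from wild type, and C4b rose in wild-type mice by 0.70 (adjusted p = 0.0333).

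T and NK cell markers rose in 15 of 21 cases with a median of 0.48, and 11 differed upward from wild type (10 without that wild-type mouse). Il7r rose by 2.09 ± 0.20, the T-cell receptor chain Cd3g by 1.56 ± 0.25, Il2rb by 1.34 ± 0.19 and Cd4 by 0.89 ± 0.16. Gzmb rose by 0.66 ± 0.18, from 4.32 (3.61 to 4.40) to 4.83 (4.47 to 5.48), while Prf1 (-0.13 ± 0.12) was not called. B and plasma cell markers rose in 6 of 12 cases with a median of 0.23, among them Blnk (0.88 ± 0.11), and Ms4a1 (-0.28 ± 0.13), which encodes CD20, was not called, but fell by 0.34 without knockout mouse 4 of the 4-week group (adjusted p = 0.0278). Of 14 neutrophil markers 3 rose and 1 fell, with a median of 0.01, and the number of rises was near the 21.4% of all genes that rose. Signals of this list were weak, with list means between 4.65 and 5.01 in the knockout mice. Csf3r rose by 1.00 ± 0.11, Fpr2 by 1.10 ± 0.26 and Cxcr2 by 0.35 ± 0.10, and S100a9 fell by 0.33 on the log2 scale.

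Promoters of 3 rising genes are shown because they hold the motif searched for NF-kB (GGANTTTCC) or for AP-1 (TGANTCA), factors known to drive inflammatory and immediate early transcription. Each is the 250 bases before the annotated start in RefSeq for GRCm38.p6, in the direction of transcription, with matches on either strand in capitals, and they were chosen after the matches were seen. The Cxcl1 window lies at chr5:90890995-90891244 on the plus strand, with its match starting 70 bases before the start. That of Icam1, an adhesion molecule that rose by 1.84 ± 0.16, lies at chr9:21015690-21015939 on the plus strand with a match 153 bases before. That of Sprr1a lies at chr3:92485882-92486131 on the minus strand with matches 146 and 116 bases before.
Cxcl1: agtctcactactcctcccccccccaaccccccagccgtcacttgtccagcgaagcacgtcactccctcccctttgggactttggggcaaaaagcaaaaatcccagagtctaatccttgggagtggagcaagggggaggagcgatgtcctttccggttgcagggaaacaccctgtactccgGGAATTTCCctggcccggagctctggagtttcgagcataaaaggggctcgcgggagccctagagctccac
Icam1: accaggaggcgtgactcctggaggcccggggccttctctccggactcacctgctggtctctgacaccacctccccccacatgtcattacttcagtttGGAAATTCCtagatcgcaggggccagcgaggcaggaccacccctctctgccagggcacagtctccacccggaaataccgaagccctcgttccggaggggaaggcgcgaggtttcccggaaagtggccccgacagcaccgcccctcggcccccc
Sprr1a: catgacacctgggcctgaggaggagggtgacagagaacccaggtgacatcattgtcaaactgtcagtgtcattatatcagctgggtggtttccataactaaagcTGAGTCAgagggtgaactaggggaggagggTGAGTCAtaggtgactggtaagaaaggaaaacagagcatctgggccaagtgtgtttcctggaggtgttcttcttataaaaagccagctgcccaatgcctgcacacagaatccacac

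The NF-kB motif was present in 1.11% of 16918 promoters with a RefSeq entry, in 3.38% of the 474 promoters of genes that rose at least 2-fold (16 genes) and in none of the 84 promoters of genes that fell at least 2-fold. The 16 include Cxcl1, Cxcl10, Icam1, Csf1, Gbp5 and Tnfaip3, the last a feedback inhibitor of NF-kB signalling that rose by 1.45 ± 0.12. The AP-1 motif was present in 6.47% of all promoters, 8.65% of those of rising and 7.14% of those of falling genes. Searches for a STAT motif (TTCNNNGAA) gave 6.83%, 8.44% and 8.33%, and for an interferon response motif (AAANNGAAA) 8.86%, 12.7% and 15.5%. These shares describe letters in a short window and were not tested, and a match is no evidence of binding.

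Tubular injury genes, expressed by damaged epithelium, rose in all 23 measured cases, with a median of 1.37, and 22 differed upward from wild type, where 3 rose and 3 fell. Without wild-type mouse 5 of the 4-week group 22 again differed upward, and 4 rose and 1 fell in wild-type mice. Lcn2, a lipocalin released by stressed tubules, went from 7.95 (7.53 to 9.15) to 10.46 (9.47 to 10.90) and rose by 2.11 ± 0.25 (adjusted p = 2.65e-08). Krt20, a keratin of injured tubule cells, went from 4.80 (4.21 to 6.21) to 7.50 (6.64 to 8.13), without overlap, and rose by 2.35 ± 0.23. The hyaluronan receptor Cd44 rose by 2.29 ± 0.19, the chaperone Clu by 1.88 ± 0.13 and the TWEAK receptor Tnfrsf12a by 1.86 ± 0.19. Clu and Tnfrsf12a also rose in wild-type mice, by 0.63 and 0.64, and the knockout rises were larger by 1.25 and 1.22.

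Acute phase and STAT3 genes rose in 13 of 16 cases with a median of 0.72, and 11 differed upward from wild type. Besides Serpina3n, the lipopolysaccharide-binding protein Lbp rose by 1.62 ± 0.15, the oncostatin M receptor Osmr by 1.49 ± 0.15, Stat3 itself by 1.39 ± 0.13 and Lrg1 by 1.26 ± 0.13. The members not called were Saa2 (0.16 ± 0.22), Saa3 (0.14 ± 0.12) and Orm1 (0.12 ± 0.11), all acute phase proteins.

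Interstitial matrix genes rose in 24 of 26 cases, with a median of 0.92, and 24 differed upward from wild type. Fn1, which encodes fibronectin, went from 8.49 (8.13 to 9.75) to 11.05 (10.10 to 11.56), without overlap, and rose by 2.20 ± 0.20 (4.58-fold, adjusted p = 3.34e-10). The fibril-associated collagen Col12a1 rose by 1.98 ± 0.24, the thrombospondins Thbs2 and Thbs1 by 1.94 ± 0.15 and 1.80 ± 0.17, and the short-chain collagen Col8a1 by 1.59 ± 0.16. Elastin, Eln (-0.15 ± 0.10), and Col16a1 (-0.07 ± 0.07) were not called.

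Regulators and proteases of fibrosis rose in 25 of 30 cases, with a median of 0.95, and 22 differed upward from wild type. Mmp2, a gelatinase of activated fibroblasts, went from 7.32 (6.95 to 7.75) to 9.87 (8.89 to 10.40) and rose by 2.39 ± 0.19 (adjusted p = 2.13e-11). Vim, the intermediate filament of mesenchymal and dedifferentiated cells, went from 10.04 (9.79 to 11.01) to 11.91 (11.50 to 12.27) and rose by 1.81 ± 0.13. Both genes had no overlap between ages. The calcium-binding protein S100a6 rose by 1.96 ± 0.20, the plasminogen activator Plat by 1.73 ± 0.15 and the growth factor Pdgfb by 1.46 ± 0.11. The receptor Tgfbr1 was not called in knockout mice (0.19 ± 0.12), fell in wild-type mice (-0.55) and differed between them by 0.74.

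Markers of mesangial cells and pericytes rose in 10 of 13 cases and fell in 1, with a median of 0.56. Acta2, smooth muscle actin, went from 9.95 (9.42 to 10.84) to 11.56 (11.32 to 11.93) and rose by 1.59 ± 0.13, and by 0.55 in wild-type mice. The receptor Pdgfrb rose by 1.21 ± 0.16, desmin (Des) by 0.87 ± 0.10 and Tagln, an actin-binding protein of smooth muscle, by 0.98 ± 0.13. All 4 differed upward from wild type, by 1.04, 0.70, 0.75 and 1.10, while Cspg4, a pericyte proteoglycan, rose in both genotypes (1.00 ± 0.13 and 0.87) with no called difference (0.12).

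**Figure D3:**
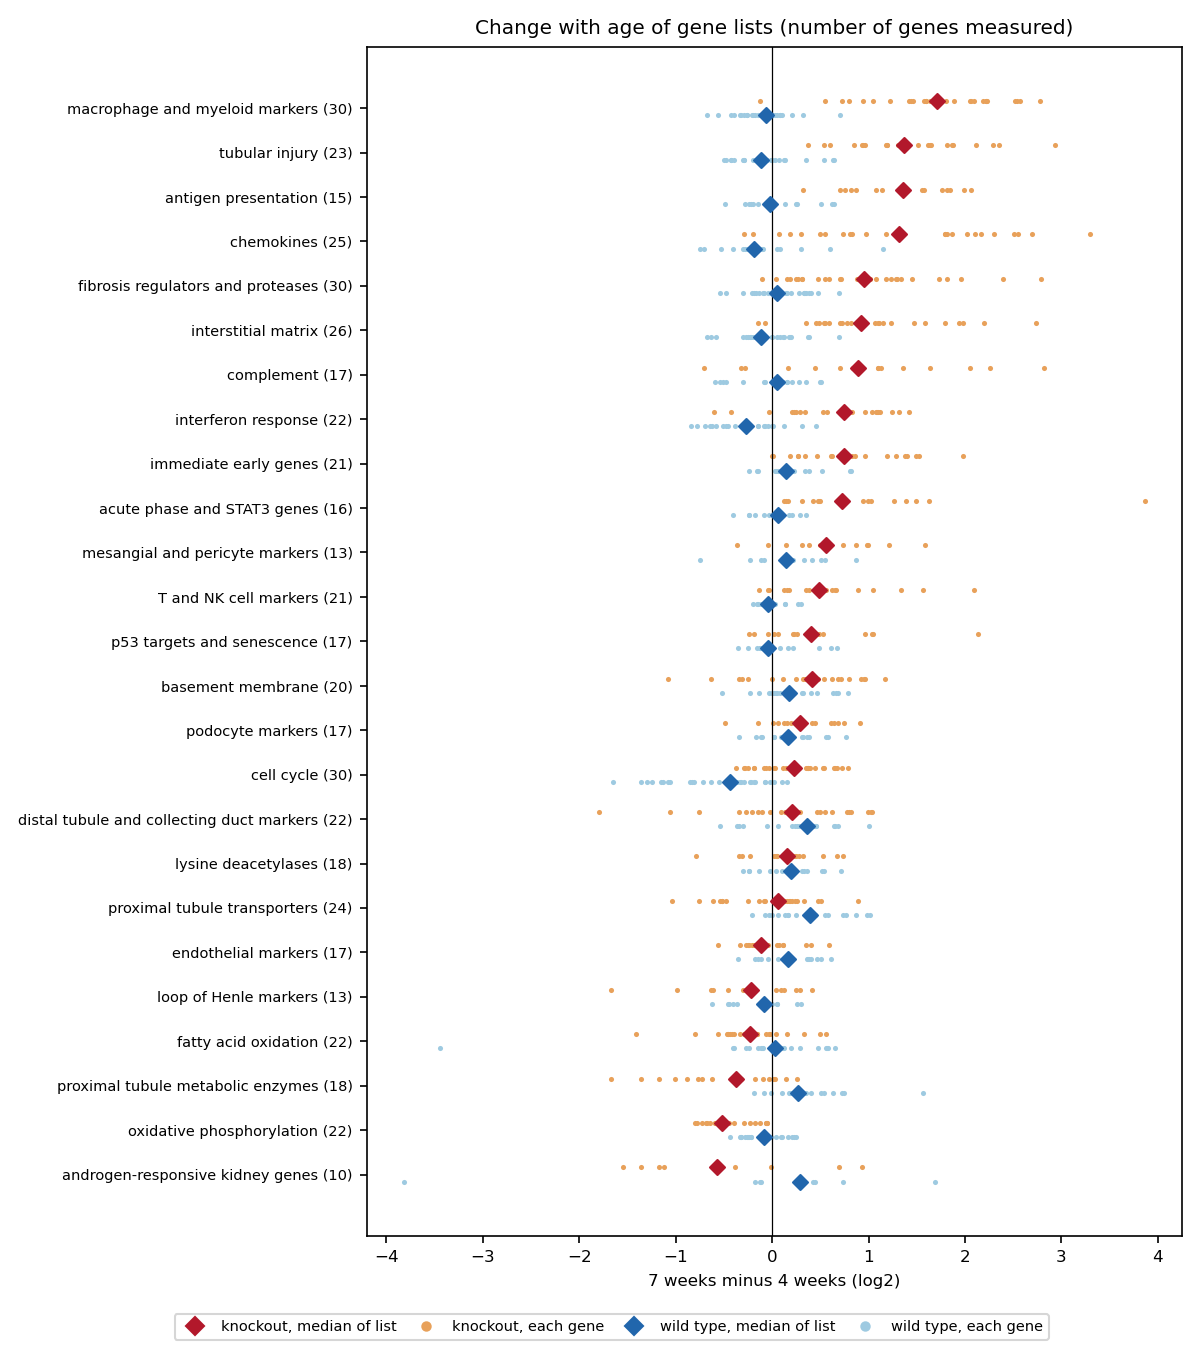
Change with age (x axis, log2, 7 weeks minus 4 weeks) of 25 gene lists (y axis, number of genes measured in brackets), with small points for each measured gene and diamonds for the list median, in knockout (orange and red) and wild-type kidney (light and dark blue). Knockout medians run from 1.71 for macrophage markers to -0.57 for androgen-responsive genes, whereas every wild-type median shown lies between -0.43 and 0.39.

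Immediate early genes rose in 17 of 21 cases, with a median of 0.74. Atf3, a stress-induced transcription factor, went from 6.52 (6.18 to 7.00) to 8.64 (7.92 to 8.84) and rose by 1.98 ± 0.14 (adjusted p = 2.82e-12). Jun rose by 1.52 ± 0.16, Myc by 1.49 ± 0.16, Egr1 by 1.40 ± 0.19 and Klf6 by 1.38 ± 0.13, whereas Fosb (0.19 ± 0.12) and Klf2 (0.01 ± 0.10) were not called. In all, 11 of the 21 differed upward from wild type.

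Among p53 targets and senescence genes, 12 of 17 rose and 1 fell, with a median of 0.40. Cdkn1a, the cell cycle inhibitor p21, went from 8.34 (7.66 to 8.77) to 10.52 (9.58 to 11.10) and rose by 2.13 ± 0.23 (4.38-fold), more than in wild-type mice by 1.52 (adjusted p = 9.64e-04). The death receptor Tnfrsf10b rose by 1.05 ± 0.11 and Btg2 by 1.04 ± 0.12, both without overlap. Cdkn2a, which encodes p16, was not called, at 6.07 (6.01 to 6.31) and 5.94 (5.69 to 6.18).

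Losses of 2-fold or more were fewer, and several of the genes that fell furthest are known from tubule cells. Clec2h, a lectin-like membrane protein, went from 10.07 (9.59 to 10.99) at 4 weeks to 7.25 (5.64 to 9.18) at 7 weeks. Its groups did not overlap, and it fell by 2.62 (SE 0.39, 6.15-fold, adjusted p = 1.46e-06), with a difference from wild type of -1.95. The secreted phosphoprotein Spp2 fell by 2.15, from 9.40 (8.89 to 9.74) to 7.23 (6.29 to 7.98), and the small proteoglycan Nepn by 2.04, from 7.88 (7.75 to 8.43) to 6.18 (4.32 to 7.09), both without overlap. The monocarboxylate transporter family member Slc16a4 fell by 1.82, the protease inhibitor family member Wfdc15b by 1.78, the glucuronosyltransferase Ugt2b34 by 1.67 and the co-chaperone Dnajc12 by 1.64. These 7 genes all differed from wild type. Not every large fall did: Serpina6, Slc22a29 and Tmem207 fell further than some of them, were not called different and are described below with the shared changes.

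Egf, made by the thick ascending limb and distal convoluted tubule, measured 11.35 (10.81 to 11.60) in younger and 9.78 (7.50 to 11.04) in older knockout mice. The older mice spread over more than 3 log2 units, 7 of 8 lay below every younger mouse, and the change was -1.67 ± 0.30 (adjusted p = 2.59e-05). Egf in wild-type mice measured 11.66 (11.37 to 11.91) and 11.63 (11.58 to 11.79). Dnase1, a nuclease made by tubule cells, went from 11.58 (11.13 to 11.75) to 9.90 (7.91 to 11.57), fell by 1.67 and also spread over more than 3 log2 units. Pvalb, a calcium-binding protein of the distal convoluted tubule, fell by 1.79, from 8.45 (7.56 to 8.97) to 6.59 (5.75 to 7.57).

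Of 18 proximal tubule metabolic enzymes, 10 fell and 1 rose, with a median of -0.37, against 7 rises and a median of 0.27 in wild-type mice. The tyrosine catabolism enzyme Hpd fell by 1.36, from 10.23 (9.64 to 10.61) to 8.82 (7.42 to 10.58), the tryptophan catabolism enzyme Haao by 1.00, the dipeptidase Cndp1 by 0.88 and ketohexokinase, Khk, by 0.77. Each of these 4 had older mice within the younger range. Relative to wild type 9 of 18 were lower, and 15 were lower after array centring.

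Of 24 proximal tubule transporters 5 rose and 7 fell, beside 21.4% and 21.3% of all genes, with a median of 0.06 (-0.01 after centring). In wild-type mice 13 of the 24 rose, beside 3417 of all 22180 genes. Slc22a7, an organic anion transporter, fell by 1.04, the phosphate transporter Slc34a3 by 0.76 and the urate transporter Slc22a12 by 0.61. Slc5a1, a sodium-glucose cotransporter, rose by 0.89 ± 0.12, while its relative Slc5a2 (-0.25 ± 0.17) and the endocytic receptor Cubn (0.26 ± 0.14) were not called. Cubn rose by 0.36 without knockout mouse 4 of the 4-week group (adjusted p = 0.0256). Relative to wild type 10 of 24 were lower and 2 higher.

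Of 13 loop of Henle markers 6 fell and 2 rose, with a median of -0.21 (7 fell and 2 rose without knockout mouse 4 of the 4-week group). The tight junction protein Cldn10 fell by 0.99 and the potassium channel Kcnj1 by 0.46, the latter also in wild-type mice (-0.62). Umod, the main protein of this segment, was not called and stayed between 13.02 and 13.39 in all 16 knockout mice. Distal tubule and collecting duct markers rose in 10 of 22 cases and fell in 5, beside 21.4% and 21.3% of all genes, with a median of 0.21. The water channel Aqp2 rose by 0.81 ± 0.14, the sodium channel subunit Scnn1b by 1.04 ± 0.11 and the calcium channel Trpv5 by 1.00 ± 0.14, and the calcium-binding protein Calb1 fell by 1.06. In wild-type mice 11 of the 22 rose and 3 fell, with a median of 0.36. Relative to wild type 5 of the 22 were lower and 1, Trpv5, was higher, or 3 higher without knockout mouse 4 of the 4-week group.

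Oxidative phosphorylation genes fell in 17 of 22 cases, with a median of -0.52, against 3 rises, 8 falls and a median of -0.09 in wild-type mice. Atp5pb, a subunit of ATP synthase, went from 10.81 (10.23 to 11.05) to 9.95 (9.71 to 10.21) and fell by 0.78 (adjusted p = 1.15e-08). Of the complex I subunits, Ndufv2 fell by 0.79, Ndufs1 by 0.72 and Ndufb5 by 0.68, and of the complex II subunits, Sdhd by 0.68 and Sdhb by 0.64. Sdha (-0.13 ± 0.07), Atp5a1 (-0.07 ± 0.06) and Ndufv1 (-0.06 ± 0.07) were not called. Relative to wild type 14 of 22 were lower, 10 after quantile normalization, 17 without knockout mouse 4 of the 4-week group and all 22 after centring. Ndufv2 was not among the 14 (-0.35, adjusted p = 0.0548 by limma). Its difference was called without knockout mouse 4 (-0.43) or without wild-type mouse 5 (-0.40) of the 4-week groups.

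Fatty acid oxidation genes fell in 12 of 22 cases and rose in 3, with a median of -0.23. The electron transfer flavoprotein subunit Etfa fell by 0.80 and the isomerase Eci1 by 0.56. Cpt1a, which admits fatty acids to the mitochondrion, rose in both genotypes, by 0.56 ± 0.13 and 0.58, with a difference of -0.02. In total 6 of the 22 differed from wild type, all lower.

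Promoters of 3 falling genes hold the motif searched for HNF1 (GTTAATNAT), a factor of tubule and liver cells, and are shown for that reason, chosen after the matches were seen. They are Slc22a29, a transporter at chr19:8218901-8219150 on the minus strand, F13b, which encodes a clotting factor subunit, at chr1:139501457-139501706 on the plus strand, and Afm, which encodes a vitamin E-binding plasma protein, at chr5:90518699-90518948 on the plus strand. Matches on either strand are in capitals and begin 32, 54 and 138 bases before the start.
Slc22a29: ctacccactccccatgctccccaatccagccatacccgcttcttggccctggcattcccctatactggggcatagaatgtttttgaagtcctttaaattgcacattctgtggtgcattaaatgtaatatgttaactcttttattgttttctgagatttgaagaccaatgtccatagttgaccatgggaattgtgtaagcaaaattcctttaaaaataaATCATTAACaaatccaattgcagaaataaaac
F13b: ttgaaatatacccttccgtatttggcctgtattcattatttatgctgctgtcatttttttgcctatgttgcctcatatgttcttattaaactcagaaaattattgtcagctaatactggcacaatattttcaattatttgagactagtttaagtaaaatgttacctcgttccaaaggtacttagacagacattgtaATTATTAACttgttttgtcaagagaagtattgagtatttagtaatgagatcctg
Afm: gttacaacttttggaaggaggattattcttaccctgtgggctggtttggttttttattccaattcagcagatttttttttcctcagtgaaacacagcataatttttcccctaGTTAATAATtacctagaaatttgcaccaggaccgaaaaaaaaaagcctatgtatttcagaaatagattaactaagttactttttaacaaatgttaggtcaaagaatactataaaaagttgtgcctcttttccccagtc

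F13b fell by 1.69, from 10.61 (10.19 to 10.99) to 9.07 (7.65 to 9.80), and Afm by 1.62, from 8.98 (8.47 to 9.21) to 7.47 (6.42 to 7.82). Neither gene overlapped between ages, and both differed from wild type, by -1.30 and -1.06. The HNF1 motif was present in 0.745% of all promoters, in 5.95% of the 84 of genes that fell at least 2-fold (5 genes) and in 0.633% of the 474 of genes that rose (3 genes, Hc, Cp and Fga). The 5 are Slc22a29, F13b, Afm, Tmed6 and the predicted gene Gm4450. An HNF4 motif (CAAAGTCCA) was present in 0.378% of all, 1.19% of falling and 1.05% of rising promoters.

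Basement membrane genes counted 12 rises and 5 falls among 20, with a median of 0.41, and 7 rose and 1 fell in wild-type mice. The proteoglycan Agrn rose by 1.17 ± 0.18, the laminin chain Lamb2 by 0.97 ± 0.13, nidogen Nid1 by 0.80 ± 0.11 and Col18a1 by 0.96 ± 0.11. Agrn and Lamb2 also rose in wild-type mice, by 0.67 and 0.79, and did not differ past the threshold (without knockout mouse 4 of the 4-week group Agrn differed by 0.65, adjusted p = 0.0377), whereas Nid1 (0.74) and Col18a1 (0.64) did. Tinag, an antigen of tubular basement membrane, went from 11.06 (10.66 to 11.32) to 9.89 (9.60 to 10.29) without overlap and fell by 1.08.

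Podocyte markers rose in 11 of 17 cases and fell in 1, with a median of 0.29. The phospholipase Plce1 rose by 0.91 ± 0.14, Nes, which encodes nestin, by 0.64 ± 0.11 and the slit diaphragm protein Kirrel by 0.61 ± 0.11, all more than in wild-type mice. Podxl, the main sialoprotein of the podocyte surface, rose in both genotypes (0.68 ± 0.15 and 0.76) with no called difference. Nphs1, which encodes nephrin, and the transcription factor Wt1 rose in wild-type mice (0.58 and 0.31) and were not called in knockout mice (0.16 ± 0.14 and 0.13 ± 0.07), but the differences were not called either (adjusted p = 0.169 and 0.242). Vegfa, the endothelial growth factor, fell by 0.49 and differed by -0.67.

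Of 17 endothelial markers 3 rose and 4 fell in knockout mice, numbers near the 21.4% and 21.3% of all genes, with a median of -0.12. In wild-type mice 7 rose and 1 fell, with a median of 0.16. The VEGF receptor Kdr, not called in knockout mice (-0.27 ± 0.14), rose in wild-type mice (0.50) and differed by -0.77 (adjusted p = 0.00601). Egfl7 fell by 0.56 without overlap, and Eng, a co-receptor for TGF-beta family ligands, rose in both genotypes (0.59 ± 0.13 and 0.61) with no called difference.

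Many changes in knockout kidney were shared with wild-type kidney. Serpina6, which encodes corticosteroid-binding globulin, had the largest fall of all named genes, from 10.26 (8.58 to 12.41) to 6.04 (5.31 to 6.67) in knockout mice and from 10.78 (10.04 to 12.40) to 6.26 (5.34 to 7.44) in wild-type mice. Groups did not overlap in the knockout, and the falls of 4.31 and 4.71 differed by 0.40 (adjusted p = 0.7). Apob, the apolipoprotein of very low density lipoprotein, rose by 1.86 ± 0.27 and 1.89, the phosphatase Ptpn22 by 1.78 ± 0.18 and 1.34, the prostaglandin transporter Slco2a1 by 1.69 ± 0.20 and 1.13 and the cadherin Fat1 by 1.64 ± 0.19 and 1.02, in knockout and wild-type mice respectively. Cyp7b1, a steroid hydroxylase, rose by 1.87 ± 0.43 and 2.97. The falls shared in the same way were those of Slc22a29 (-1.91 ± 0.27 and -1.59), Tmem207 (-1.74 ± 0.35 and -0.94), the orphan receptor Gpr52 (-1.27 ± 0.14 and -1.21) and osteomodulin, Omd (-1.28 ± 0.19 and -0.58). None of these 10 genes was called different, which was a condition of the rule that picked them. Without knockout mouse 4 of the 4-week group 4 of them were: Tmem207 by -1.16, Omd by -0.81, Slco2a1 by 0.75 and Fat1 by 0.76. Omd also differed without wild-type mouse 5 of that age, by -0.79, and the wild-type falls of Omd and Tmem207 were then not called (adjusted p = 0.0523 and 0.0521).

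Antibody transcripts rose with age in both genotypes. Jchain, which joins immunoglobulin polymers, went from 6.45 (4.85 to 6.95) to 8.83 (7.71 to 10.26) and rose by 2.95 ± 0.40 in knockout and 2.64 in wild-type mice, with a difference of 0.30 (adjusted p = 0.775). Of 19 immunoglobulin segments, a set gathered after the values were seen, 18 rose in knockout mice (median 2.51) and 17 in wild-type mice (median 2.24), and 1 was called different. Near-identical segments share sequence, so single segments were not described.

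Of 483 features for microRNA genes, 123 fell and 4 rose in knockout mice (median -0.15), and 91 fell and 6 rose in wild-type mice. Of all genes 21.3% fell and 21.4% rose in knockout mice, so the number of falls lay near that of all genes, and rises were also few among weakly detected genes in general (147 of 5545 in the weakest bin). The array measures the whole transcript of the gene and not the mature microRNA. A few with shared falls were named after their values were seen. Mirlet7c-1 and Mir99a, neighbours on chromosome 16, fell by 1.30 and 1.12 in knockout and by 1.32 and 1.07 in wild-type mice, and their host transcript Mir99ahg by 1.27 and 1.09. Mir505, on the X chromosome, fell by 1.29 and 1.32, from 10.89 (10.53 to 11.18) to 9.56 (9.23 to 9.86) in knockout mice without overlap. Mature sequences are at chr16:77599672-77599693 and chr16:77598940-77598961 on the plus strand and chrX:60394416-60394437 on the minus strand. These sequences, from RefSeq for GRCm38.p6 with the seed (bases 2 to 8) in capitals, are shown because the genes fell in both genotypes, and they hold different seeds.
let-7c-5p: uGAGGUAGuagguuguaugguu
miR-99a-5p: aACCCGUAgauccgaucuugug
miR-505-3p: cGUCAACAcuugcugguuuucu

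Cell division genes fell with age in wild-type kidney and mostly did not in knockout kidney. Of 30 cell cycle genes, 17 fell in wild-type mice, with a median of -0.43, beside 3136 of all 22180 genes. In knockout mice 11 rose and 2 fell, with a median of 0.22, beside 21.4% and 21.3% of all genes. Relative to wild type 21 of the 30 differed upward, beside 2174 of all genes. Cdk1, the mitotic kinase, went from 7.64 (6.77 to 8.54) to 5.89 (5.39 to 6.72) in wild-type mice, a fall of 1.65 (adjusted p = 2.82e-06). In knockout mice it measured 8.03 (7.41 to 9.39) and 8.11 (7.13 to 8.31) and was not called (-0.25 ± 0.23), and the genotypes differed by 1.40 (adjusted p = 0.00254). The proliferation marker Mki67 was not called in knockout mice (0.21 ± 0.24) and fell by 1.29 in wild-type mice, a difference of 1.50. Ccna2 and Ccnb2, cyclins of S phase and mitosis, fell in wild-type mice by 1.25 and 1.36 and were not called in knockout mice (0.15 ± 0.23 and -0.09 ± 0.24). Esco2 and Knl1, needed for sister chromatid cohesion and kinetochores, lie outside this list and differed by 1.00 and 0.92. They were named by a rule that required a called wild-type change and difference without a knockout call, so their pattern was fixed by that choice. Without knockout mouse 4 of the 4-week group both fell in knockout mice too, by 0.62 and 0.60, and the difference of Esco2 was not called (adjusted p = 0.0529).

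Among the 11 cell cycle genes that rose in knockout mice were subunits of the replicative helicase: Mcm5 (0.79 ± 0.14), Mcm3 (0.72 ± 0.16), Mcm2 (0.67 ± 0.11), Mcm4 (0.65 ± 0.12) and Mcm7 (0.53 ± 0.10). The mitotic kinase Plk1 rose by 0.65 ± 0.14. Mcm5 went from 7.95 (7.65 to 8.28) to 8.80 (8.43 to 8.91), without overlap, and fell in wild-type mice by 0.36. The number of rises in knockout mice was 7 after quantile normalization and 11 in a fit of knockout mice alone. Knockout mice 5 and 8 of the 4-week group had the highest cell cycle means among younger mice, 7.96 and 7.84, against 7.14 to 7.44 in the other 6, so the younger group was not uniform.

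**Figure D4:**
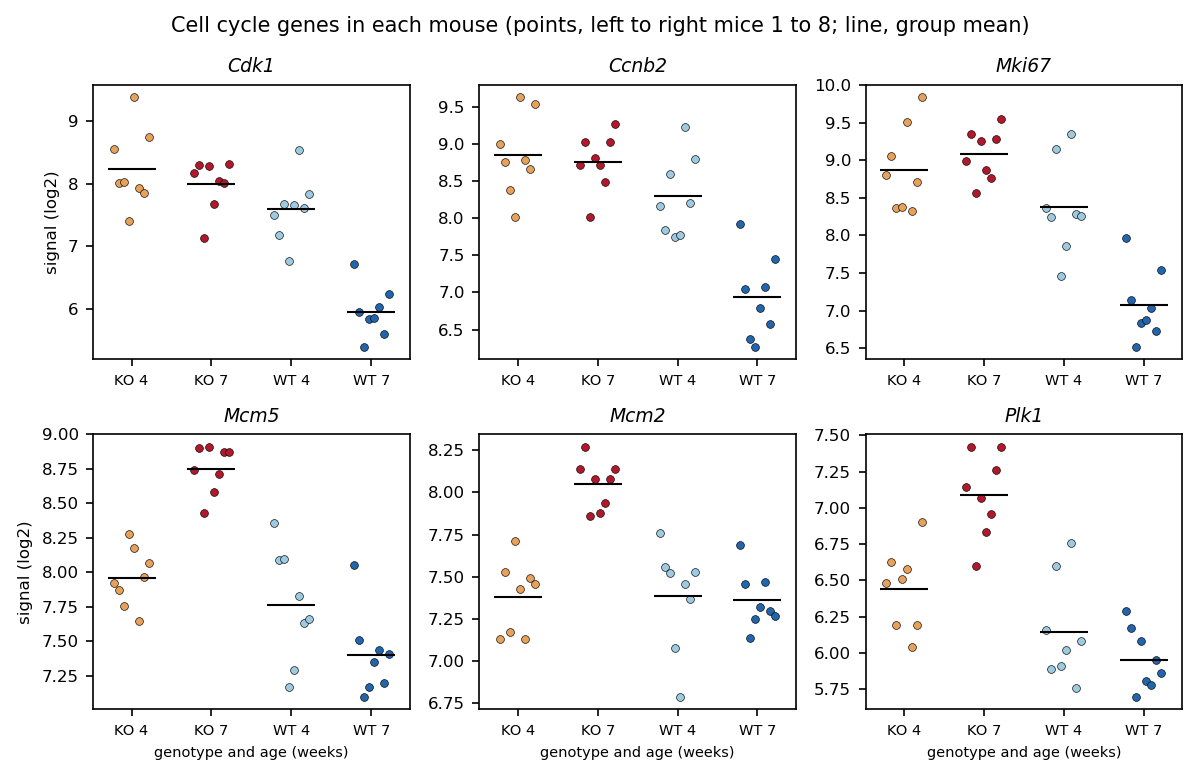
Log2 signal (y axes) of 6 cell cycle genes in each of the 32 mice (points, left to right mice 1 to 8), by genotype and age in weeks (x axes), with a line at the group mean. Cdk1 measures 5.89 (5.39 to 6.72) in wild-type mice of 7 weeks, below every mouse of the other 3 groups, and Mcm5 and Mcm2 are higher in every older than in any younger knockout mouse.

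The promoters of Cdk1 and Ccnb2, both cell cycle genes, were chosen after the matches were seen. They are shown because each holds 3 CCAAT boxes (CCAAT, bound by NF-Y) in the 250 bases before its start. They lie at chr10:69352913-69353162 and chr9:70421555-70421804, both on the minus strand, and CCAAT or its reverse complement is in capitals.
Cdk1: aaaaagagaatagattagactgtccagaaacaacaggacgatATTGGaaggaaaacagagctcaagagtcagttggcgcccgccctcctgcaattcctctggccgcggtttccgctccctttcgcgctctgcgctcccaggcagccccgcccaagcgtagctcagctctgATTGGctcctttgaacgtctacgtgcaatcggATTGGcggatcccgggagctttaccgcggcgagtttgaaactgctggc
Ccnb2: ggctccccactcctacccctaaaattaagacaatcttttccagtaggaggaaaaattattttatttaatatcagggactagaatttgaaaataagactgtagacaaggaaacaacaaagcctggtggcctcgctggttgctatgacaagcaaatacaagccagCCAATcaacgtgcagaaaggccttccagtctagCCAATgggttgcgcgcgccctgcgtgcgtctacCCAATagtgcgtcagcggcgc
A CCAAT box on either strand was present in 35.6% of all promoters, in 30.4% of those of genes that rose at least 2-fold and in 38.1% of those that fell in knockout mice. An E-box (CACGTG) was present in 6.87%, 5.06% and 7.14%. Cdk1 and Ccnb2 are in neither of the changed sets. Shares among cell cycle genes, or of promoters with 3 CCAAT boxes, were not counted.

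In all, 739 genes were called in wild-type mice and for the difference but not in knockout mice (631 without wild-type mouse 5 of the 4-week group). The rises included Azgp1, an adipokine-like glycoprotein, at 1.83 in wild-type against 0.42 ± 0.22 in knockout mice, the plasma glycoprotein Hrg (1.67 against 0.21 ± 0.24), the Fc receptor for IgM and IgA, Fcamr (1.68 against -0.02 ± 0.33), and the protease inhibitor Pzp (1.48 against 0.01 ± 0.32). Ct55 and Tc2n also rose in wild-type mice, with differences of -1.97 and -1.45.

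In 276 genes the changes of the 2 genotypes were called with opposite signs, 188 of them higher with age in knockout mice, and after array centring 120 of 346. Psca, a cell surface antigen of epithelia, rose by 1.60 ± 0.37 in knockout and fell by 1.42 in wild-type mice. Car3, a carbonic anhydrase, fell by 1.17 and rose by 1.56, and the cytochrome Cyp2d12 fell by 1.06 and rose by 1.50. Gbp3 rose by 1.24 ± 0.27 and fell by 0.84, Plac8 rose by 1.01 ± 0.22 and fell by 0.73, and the granzyme inhibitor Serpinb9 rose by 0.74 ± 0.15 and fell by 0.75. Wild-type mouse 8 of the 4-week group held the highest values of Gbp3, Plac8 and Serpinb9 in its group. Without it the differences were 1.73, 1.55 and 1.38, all called, and 250 genes had opposite signs, or 217 without wild-type mouse 5 of that group.

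Genes that respond to androgens in the kidney of male mice fell in 7 of 10 cases and rose in 1 in knockout mice, with a median of -0.57, against 3 rises, 1 fall and a median of 0.29 in wild-type mice. Without knockout mouse 4 of the 4-week group 7 fell and 1 rose, with a median of -0.64. Slco1a1, an organic anion transporter, went from 11.80 (10.22 to 12.21) to 10.36 (8.81 to 11.51) and fell by 1.17, and Slc22a30 fell by 1.36, Akr1c21 by 1.12 and ornithine decarboxylase, Odc1, by 0.61. These 4 differed from wild type. Slc7a12, an amino acid transporter, fell by 1.55 in knockout but by 3.81 in wild-type mice, from 11.16 (10.55 to 12.02) to 7.51 (6.84 to 8.40), so that the knockout change was higher by 2.27 (adjusted p = 0.001). Slc7a12 is 1 of the 7 knockout falls and is the 1 wild-type fall. The list does not separate genes raised by androgens from genes lowered by them, so its counts and median give no direction of androgen response. Hormone levels were not analysed here.

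Vitamin D and phosphate genes counted 6 rises and 4 falls among 13. Cyp27b1, which activates vitamin D, rose by 1.56 ± 0.24, and Cyp24a1, which inactivates it, by 1.49 ± 0.44, and neither difference from wild type was called. In wild-type mice they rose by 0.92 and 1.34. S100g, the intestinal-type calbindin, went from 11.41 (10.83 to 12.17) to 9.998 (9.30 to 10.53), fell by 1.56 and differed by -0.99. The phosphate transporter Slc20a1 rose by 1.22 ± 0.12 and differed by 0.91.

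Lysine deacetylases, named in the title of the study, rose in 8 of 18 cases and fell in 4, with a median of 0.16, close to the 8 rises, 3 falls and 0.19 of wild-type mice. Hdac6 rose by 0.67 ± 0.12 in knockout and 0.71 in wild-type mice, Hdac7 by 0.74 ± 0.14 and 0.52, and Sirt6 by 0.53 ± 0.09 and 0.36, with no called difference. Sirt3, the mitochondrial deacetylase, went from 9.20 (8.99 to 9.24) to 8.39 (7.72 to 8.88), without overlap, fell by 0.79 and differed from wild type by -0.65 (adjusted p = 0.00484).

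Older knockout mice were unequal. In the order of mice 1 to 8 of the 7-week group, the macrophage marker mean was 8.97, 8.08, 7.88, 8.98, 8.18, 9.06, 8.26 and 8.91. The proximal tubule enzyme mean of the same mice was 9.93, 10.77, 11.04, 10.09, 10.78, 9.59, 10.58 and 10.23, and the oxidative phosphorylation mean was 9.92, 10.21, 10.20, 9.92, 10.19, 9.81, 10.13 and 9.91. Mouse 6 had the highest macrophage mean and the lowest mean of both metabolic lists. Wide spread at this age was seen in Clec2h (SD 1.30), Egf (1.24), Dnase1 (1.30) and Akr1c14 (1.20), and the median SD over all genes was 0.165 at 7 weeks and 0.208 at 4 weeks. Klk1b22, a kallikrein, had the widest spread at both ages, 8.69 (5.14 to 10.14) and 8.38 (4.28 to 9.82), and was not called.

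Younger knockout mice differed too. In the order of mice 1 to 8 of the 4-week group, the tubular injury mean was 7.72, 7.29, 7.79, 7.83, 7.30, 7.36, 7.14 and 7.33. Mouse 4 had a loop of Henle mean of 9.05, against 9.71 to 9.80 in the other 7, and the lowest oxidative phosphorylation mean of its group, 10.22.

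**Figure D5:**
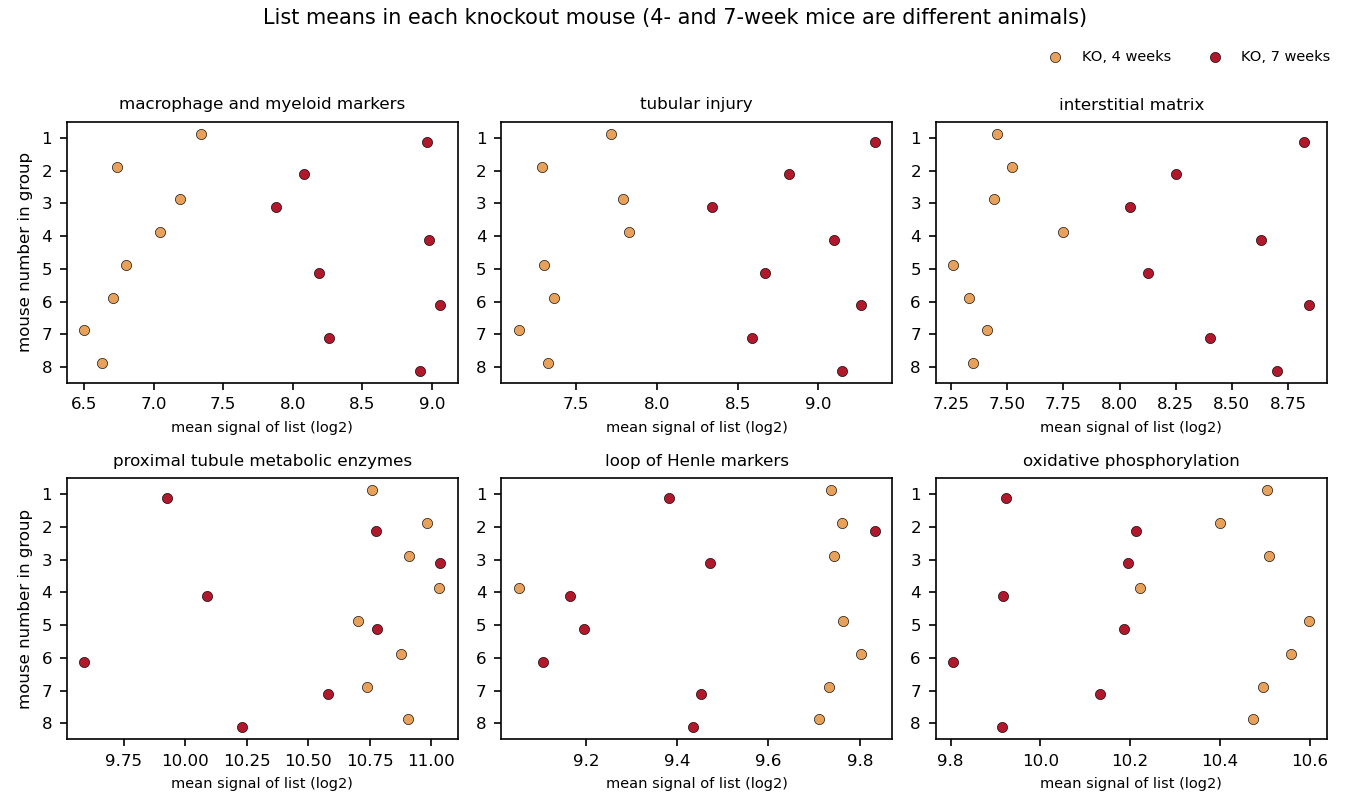
Mean log2 signal of 6 gene lists (x axes) in each knockout mouse (y axis, number within its group), 4 weeks in orange and 7 weeks in red, different animals at the 2 ages. Macrophage, injury and matrix means of all older mice exceed those of all younger mice, and oxidative phosphorylation means of all older mice lie below those of all younger mice. In the tubule enzyme and loop of Henle panels the ages overlap.

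Markers of tissues that can adhere to a dissected kidney were also examined. Adipocyte markers fell in 2 of 5 cases (1 without knockout mouse 4 or without wild-type mouse 5 of the 4-week groups), the larger being Fabp4, also an endothelial gene, from 10.27 (9.12 to 10.84) to 9.19 (8.79 to 9.32), a change of -1.06 ± 0.15, while the fat-specific Plin1 (-0.06 ± 0.08) and Lep (-0.03 ± 0.12) were not called. Limma called 0 of 6 adrenal cortex markers (1 at an unadjusted p under 0.05) and 0 of 5 urothelial markers (0 at an unadjusted p under 0.05), and 1 of 6 skeletal muscle markers rose. Their part in the other results was not tested. Of erythroid markers the one measured, Epb42, rose by 0.48 ± 0.09.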

How the data were processed

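Kidney RNA of 32 mice, 8 per genotype and age, was hybridised to whole-transcript arrays from Affymetrix (Mouse Gene 2.0 ST), 1 per mouse. Per the labels' protocols, tissue was kept in RNAlater, RNA was prepared with a miRNeasy Mini Kit and amplified as whole-transcript cDNA with biotin labelling. The deposited values are log2 signals made by the authors with RMA in Affymetrix Expression Console, per the submitters' processing notes, with versions not given in the sources used here, and no rescaling was applied to them for the main results. The number of arrays limits the precision.

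Of 41345 features, 23521 named 1 gene symbol, 1814 several and 16010 none in the platform annotation. Where several features named 1 gene (1082 genes), the one with the highest mean was kept, giving 22180 genes, of which 21994 matched a RefSeq gene. The change with age in each genotype, and the difference of these changes, were estimated with limma 3.58.1 (R 4.3.3) in 1 fit of all 32 mice (28 residual degrees of freedom), with Benjamini-Hochberg adjustment over 22180 genes and a threshold of 0.05. The fit was tested on simulated data. The collagen genes were also tested with exact two-sided permutation tests over 16 mice, for which the smallest p possible is 0.000155. Figures and summaries used Python 3.11.15, pandas 2.3.3, scipy 1.17.1 and matplotlib 3.10.9.

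Named genes were the collagen genes, the 15 largest called changes per direction, the 10 largest differences per direction, 6 per direction shared with wild type or called in wild type alone, 6 with opposite signs, 8 with the largest SD in older knockout mice, and in each of 43 gene lists (724 of 789 genes measured) up to 6 called and 3 not called members. The rankings skipped predicted genes, small RNAs, olfactory and vomeronasal receptors and segments of antigen receptors. Others are marked as named after their values were seen. Members and lists were chosen with earlier results of these data known. Alternatives were array centring, quantile normalization, a filter on low values, other variance models, array weights, the mean of all features, knockout mice alone, the replicate number as a block, a rank-sum test and leaving out each mouse.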

Additional observations from a re-analysis of the deposited data

Results flagged for a closer look

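The change with age differed between genotypes for 3779 genes by limma with Benjamini-Hochberg adjustment, of which 174 are named here. Each value below is the knockout change minus the wild-type change on the log2 scale. Of all 243 named genes, 213 kept the same call for the difference under every alternative. Sdha was not called different without wild-type mouse 8, wild-type mouse 5 or knockout mouse 4 of the 4-week groups (adjusted p = 0.0687, 0.0699 and 0.0507 by limma). Ndufv1 and Hmox1 were not called different without that wild-type mouse 5 (adjusted p = 0.0514 and 0.057).

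Among immune cell, chemokine, cytokine, complement and interferon genes, those above wild type were Ccl5 (3.49), Ccl2 (3.30), Lyz2 (3.20), Ccl17 (3.00), Ctss (2.93), Cd14 (2.80), Ccl9 (2.69), Ccl6 (2.59), C3ar1 (2.57), Cxcl10 (2.57), Ms4a7 (2.52), C4b (2.48), Il1f6 (2.43), Fcer1g (2.41), Cd68 (2.25), Hc (2.14), Gbp3 (2.08), H2-Aa (2.07), Gbp5 (1.90), H2-Eb1 (1.80), Il7r (1.80), C7 (1.67), Cd3g (1.61), Tap1 (1.60), Csf1 (1.56), Tnfsf13b (1.56), Il1b (1.53), H2-K1 (1.52), Il1rn (1.52), Cxcl1 (1.49), Serping1 (1.43), Fpr2 (1.37), H2-Ab1 (1.37), Cfi (1.35), Ifit1 (1.12), Oasl1 (1.11), Oasl2 (1.11), Il34 (1.09), Il2rb (1.06), Csf3r (0.92), Cd4 (0.90), Blnk (0.83), Gzmb (0.73) and Stat2 (0.64).

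Among injury, acute phase, immediate early and p53 genes, those above wild type were Serpina3n (4.10), Vcam1 (3.36), Krt20 (2.64), Cd44 (2.59), Lcn2 (2.54), Osmr (1.89), Atf3 (1.84), Klf6 (1.62), Lbp (1.54), Cdkn1a (1.52), Myc (1.38), Egr1 (1.29), Clu (1.25), Tnfrsf12a (1.22), Tnfrsf10b (1.10), Btg2 (1.09), Stat3 (1.04), Jun (1.00) and Lrg1 (0.97).

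Among matrix, fibrosis, mesangial and glomerular genes, those above wild type were Timp1 (2.95), Tnc (2.86), S100a6 (2.17), Mmp2 (2.01), Col12a1 (1.98), Fn1 (1.83), Thbs2 (1.74), Col8a1 (1.72), Vim (1.66), Pdgfb (1.13), Tagln (1.10), Thbs1 (1.10), Acta2 (1.04), Plat (1.03), Des (0.75), Plce1 (0.75), Nid1 (0.74), Tgfbr1 (0.74), Pdgfrb (0.70), Col18a1 (0.64), Nes (0.62) and Kirrel (0.60). Among matrix, fibrosis, mesangial and glomerular genes, those below wild type were Kdr (-0.77), Vegfa (-0.67), Col4a3 (-0.65) and Tinag (-0.56).

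Among tubule and metabolic genes, those above wild type were Slc7a12 (2.27), Trpv5 (1.05), Slc20a1 (0.91) and Slc5a1 (0.75). Among tubule and metabolic genes, those below wild type were Car3 (-2.74), Dnase1 (-2.02), Hpd (-1.87), Slc22a7 (-1.78), Egf (-1.67), Pvalb (-1.49), Slco1a1 (-1.49), Cndp1 (-1.42), Cyp51 (-1.40), Haao (-1.28), Slc22a30 (-1.24), Slc34a3 (-1.17), Odc1 (-1.05), S100g (-0.99), Akr1c21 (-0.95), Khk (-0.87), Slc5a2 (-0.80), Slc22a12 (-0.77), Calb1 (-0.72), Cldn10 (-0.63), Ndufs1 (-0.60), Etfa (-0.53), Atp5pb (-0.45), Sdhd (-0.43), Sdhb (-0.42), Ndufb5 (-0.36), Ndufv1 (-0.31) and Sdha (-0.29).

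Among cell cycle genes, those above wild type were Mki67 (1.50), Ccna2 (1.40), Cdk1 (1.40), Ccnb2 (1.27), Mcm5 (1.15), Plk1 (0.84), Mcm4 (0.83), Mcm3 (0.79), Mcm2 (0.69) and Mcm7 (0.52).

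Among the remaining named genes, those above wild type were Ms4a6d (3.29), Retnla (3.16), Psca (3.02), Sprr1a (3.02), Slc34a2 (2.38), H2-DMb2 (2.33), Plac8 (1.74), Hspb1 (1.71), Icam1 (1.53), Serpinb9 (1.49), Tnfaip3 (1.45), Cpe (1.20), Esco2 (1.00), Hspa1b (0.94), Knl1 (0.92), Slc7a11 (0.82), Cryab (0.74), Mt1 (0.74), Epb42 (0.70), Bhlhe40 (0.66), Asns (0.64), Hmox1 (0.61) and Eif2ak3 (0.50). Among the remaining named genes, those below wild type were Cyp2d12 (-2.56), Ct55 (-1.97), Clec2h (-1.95), Nepn (-1.73), Fcamr (-1.70), Akr1c14 (-1.49), Pzp (-1.47), Hrg (-1.46), Tc2n (-1.45), Azgp1 (-1.41), Spp2 (-1.41), Dnajc12 (-1.33), F13b (-1.30), Slc16a4 (-1.14), Wfdc15b (-1.12), Afm (-1.06), Ugt2b34 (-1.03), Sirt3 (-0.65), Bnip3 (-0.52) and Nr1h4 (-0.50).

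Single mice stood far from the other 7 of their group in 46 of 658 sets of values, where chance gives about 1 in 20, and mouse 4 of the knockout 4-week group accounted for 23. Signals of single genes were checked in the knockout groups only, and list means in all groups. The counts therefore do not compare knockout with wild-type mice. Mouse 1 of the knockout 4-week group had the highest list mean of adrenal cortex markers (4.86), and the lowest signal of Ccl4 (5.86). Mouse 3 of the knockout 4-week group had the highest signal of Cfi (6.38). Mouse 4 of the knockout 4-week group had the highest signal of Cxcl10 (8.86), Hspb1 (7.78), Thbs2 (6.67), Tnc (7.77) and Vim (11.01), and the highest list mean of mesangial and pericyte markers (7.98) and fibrosis regulators and proteases (7.50), and the lowest signal of Akr1c14 (8.97), Calb1 (11.36), Cldn10 (10.19), Cyp51 (7.95), Etfa (9.94), Ndufs1 (9.60), Nqo1 (7.61), Slc16a4 (10.28), Slc22a30 (6.61), Slc22a7 (7.11), Slc7a12 (9.60), Slco1a1 (10.22), Tmem207 (7.36) and Wfdc15b (9.65), and the lowest list mean of loop of Henle markers (9.05) and androgen-responsive kidney genes (9.72). Mouse 5 of the knockout 4-week group had the lowest signal of Gzmb (3.61). Mouse 7 of the knockout 4-week group had the lowest signal of Car3 (8.09). Mouse 2 of the knockout 7-week group had the highest list mean of urothelium markers (6.23), and the lowest signal of Mirlet7c-1 (4.96). Mouse 3 of the knockout 7-week group had the highest list mean of skeletal muscle markers (5.16). Mouse 5 of the knockout 7-week group had the highest signal of Cyp27b1 (10.57). Mouse 6 of the knockout 7-week group had the highest signal of Tagln (9.07), and the lowest signal of Fabp4 (8.79), and the lowest list mean of renin-angiotensin system (7.61). Mouse 8 of the knockout 7-week group had the lowest signal of Hspe1 (6.55). Mouse 1 of the wild-type 4-week group had the highest list mean of fatty acid oxidation (10.67), and the lowest list mean of androgen-responsive kidney genes (9.40). Mouse 2 of the wild-type 4-week group had the lowest list mean of interstitial matrix (6.98). Mouse 5 of the wild-type 4-week group had the highest list mean of tubular injury (7.55), and the lowest list mean of cholesterol synthesis (8.06). Mouse 7 of the wild-type 4-week group had the highest list mean of urothelium markers (6.98). Mouse 8 of the wild-type 4-week group had the highest list mean of T and NK cell markers (5.84), interferon response (7.88) and antigen presentation (9.996). Mouse 8 of the wild-type 7-week group had the highest list mean of interferon response (6.53).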

How the results depend on the processing

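Leaving out 1 mouse at a time gave 8734 to 9984 called genes for the knockout change, 5876 to 6534 for the wild-type change and 3187 to 4293 for the difference. Genes whose age groups do not overlap numbered 2161 to 4170, the highest without knockout mouse 4 of the 4-week group. Col4a3 fell by 0.56 to 0.72, Col4a4 by 0.27 to 0.36 and Col4a5 by 0.31 to 0.37, with highest exact permutation p values (unadjusted) of 0.00389, 0.0172 and 0.00109. Array centring gave 11136, 6412 and 5033 called genes and quantile normalization, chosen after seeing the data like the leaving out of mice that stand apart in the gene lists, 8979, 6567 and 3987. The other settings gave 7332 to 10036 genes for the knockout change. Same-numbered mice of the 2 ages correlated between -0.134 and 0.138 in the knockout and between -0.047 and 0.214 in wild type, so the numbers were not taken to pair mice, and with the replicate block 9397, 6473 and 3743 genes were called. Scaling moves small changes and the split between rises and falls. Signal near background limits weak genes, whose changes cannot be told apart from the level effect described above.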

Other observations

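Stress and metabolic regulator lists were mixed, and several of their counts lie near the 21.4% of all genes that rose and the 21.3% that fell. Of 12 heat shock genes 5 rose and 2 fell in knockout kidney: the small heat shock proteins Hspb1 and Cryab rose by 1.92 ± 0.21 and 0.89 ± 0.13, and Hspa1b by 1.09 ± 0.20, all more than in wild-type mice, while the mitochondrial chaperonin Hspe1 fell by 0.47. Of 14 NRF2 targets and metallothioneins 7 rose and 3 fell. Heme oxygenase, Hmox1, rose by 1.43 ± 0.15 in knockout and 0.82 in wild-type mice, the cystine transporter Slc7a11 by 0.93 ± 0.15 in knockout mice, and Mt1 by 0.65 ± 0.12. Nqo1 (-0.25 ± 0.13) was not called, but fell by 0.37 without knockout mouse 4 of the 4-week group. Of 14 hypoxia targets 6 rose and 4 fell, with the glucose transporter Slc2a1 up by 0.93 ± 0.12 and Bnip3 down by 0.82. Of 19 genes of the unfolded protein response 8 rose, among them asparagine synthetase, Asns (1.10 ± 0.10), and the kinase gene Eif2ak3 (0.59 ± 0.09).

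Of 18 nephron transcription factors 4 rose and 6 fell: Pax8 rose by 0.86 ± 0.13 and the bile acid receptor Nr1h4 fell by 0.56, with 8 rises and 2 falls in wild-type mice. Cholesterol synthesis genes counted 8 rises and 2 falls among 17, and Cyp51, a sterol demethylase, fell by 1.33 and differed from wild type by -1.40. Of 18 juvenile growth and imprinted genes 4 rose and 3 fell, with Igf1r up by 0.59 ± 0.15 in knockout and 0.62 in wild-type mice and the growth hormone receptor Ghr down by 0.72. Of 9 genes of the renin-angiotensin system 2 rose and 3 fell, and angiotensinogen, Agt, rose by 1.02 ± 0.14. Of 17 circadian clock genes 5 rose and 4 fell (2 fell without knockout mouse 4 of the 4-week group), the largest named rise being that of Bhlhe40 (1.17 ± 0.12). The medians of the proximal tubule transporter, juvenile growth and neutrophil lists lay within 0.1 of 0 and changed sign after array centring.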
